A study of Mus musculus with 10 samples.

Results

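The dystrophin-glycoprotein complex genes described here are 8 of the 54232 genes in the expression table, namely Dmd, Utrn, Dag1, Sgca, Sgcb, Sgcd, Sspn and Dtna. They were chosen by name, and all 8 were found by their Ensembl identifiers and passed the limit on low expression. RNA had been sequenced from the gastrocnemius, a calf muscle, of 5 homozygous desmin knock-out mice (Des -/-) and 5 wild-type littermates (Des wt/wt), both 3 months old. All 10 mice carried the same strain label, which names B6J as recipient and 129Sv as donor background, Destm1Cba as the targeted allele and Cscl as the laboratory code. The knock-out removes desmin, the main intermediate filament protein of muscle, from every cell of the animal and not from muscle fibers alone. Sex was not labelled, and transcripts of 4 Y-linked genes were read in all 10 mice. The labels name the gastrocnemius alone, while the paper's text also speaks of the neighbouring plantaris muscle, so that a share of plantaris RNA cannot be told apart here. The paper's text also speaks of pooled RNA, but the table has a column for each mouse, which was used here as 1 replicate.

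Dystrophin is a long rod-shaped protein beneath the sarcolemma that binds actin inside the muscle fiber and, through dystroglycan, laminin outside it. The sarcoglycans and sarcospan stabilize this link in the membrane, while dystrobrevins and syntrophins form its cytoplasmic, signaling arm. Utrophin is a close relative of dystrophin that is concentrated at the neuromuscular junction (NMJ) of adult fibers. Loss of dystrophin or of a sarcoglycan causes muscular dystrophy, and desmin filaments reach the sarcolemma at the same sites, the costameres.

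Levels are given as the deposited rlog (regularized log) values. This log2-scale transform corrects for sequencing depth and shrinks each gene towards its average, so that differences are smaller than log2 fold changes of counts. Of 14289 genes tested with limma, 13.7% passed at an adjusted p under 0.05, with 7.7% above and 5.99% below wild-type muscle. Des, the targeted gene, ranged from 11.76 to 11.89 in knock-out and from 16.10 to 17.74 in wild-type mice, which matched the genotype given for every mouse. The summed level of 8 skeletal muscle genes lay between 22.14 and 23.29 on the log2 scale in every mouse. Ckm, the muscle creatine kinase, was among the most abundant genes. These genes mark skeletal muscle and do not by themselves tell the gastrocnemius from another muscle. Wild-type mouse 3 stood apart, with a summed signal of 1.48 times the median of all mice. Its deviation from the gene means over all mice fell by 0.148 log2 units with each doubling of transcript length. In wild-type mouse 4 this deviation fell by 0.0693 per doubling, while the other 8 mice had slopes between -0.00304 and 0.0578.

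The 250 bases before an annotated start are shown for 3 of the genes, to give the sequence context of the members the results turn on: Dmd, which names the complex, Sspn, the gene that passed the test, and Sgcb, whose genotypes did not overlap. RefSeq sequences of the build GRCm38.p6 held 10 such windows for 7 of the 8 genes. Capitals mark matches to the motifs searched on both strands, which were the E box CANNTG, the N box CCGGAA, the GC box GGGCGG, the CArG box of serum response factor and the MEF2 site. The window of Dmd lies on the forward strand at chrX:82948620-82948869, that of Sspn before the downstream one of its RefSeq starts, which lies inside the gene, on the forward strand at chr6:145933872-145934121, and that of Sgcb on the reverse strand at chr5:73647791-73647987, cut to 197 bases before the GENCODE start of the gene.
Dmd: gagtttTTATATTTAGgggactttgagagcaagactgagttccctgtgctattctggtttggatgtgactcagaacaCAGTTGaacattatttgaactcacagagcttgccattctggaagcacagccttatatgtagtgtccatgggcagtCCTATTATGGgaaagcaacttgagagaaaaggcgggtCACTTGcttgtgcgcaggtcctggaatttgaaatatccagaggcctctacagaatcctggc
Sspn: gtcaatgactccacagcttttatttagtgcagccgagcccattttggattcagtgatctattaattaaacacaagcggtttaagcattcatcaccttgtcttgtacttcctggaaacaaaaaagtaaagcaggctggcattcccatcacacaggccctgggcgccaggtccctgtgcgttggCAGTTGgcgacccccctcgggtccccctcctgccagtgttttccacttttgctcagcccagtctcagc
Sgcb: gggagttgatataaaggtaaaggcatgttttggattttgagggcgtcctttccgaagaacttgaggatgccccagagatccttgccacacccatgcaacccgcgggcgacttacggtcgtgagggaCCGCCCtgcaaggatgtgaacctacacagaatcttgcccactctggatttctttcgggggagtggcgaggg
The window of Dmd held 1 CArG box, 1 MEF2 site and 2 E boxes, none of which overlapped another. That of Sspn held 1 E box and that of Sgcb 1 GC box, and no N box was matched in these windows. The other window of Sspn, at chr6:145931623-145931872 and not shown, held none of the motifs. Among all 32851 windows of 250 bases, 66.2% held an E box, 32.7% a GC box, 12.0% an N box, 2.92% a MEF2 site and 1.47% a CArG box. The matches describe letters and do not show that a factor binds there, and gene-level values do not show which start was used.

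In desmin knock-out muscle, 1 of the 8 genes changed, Sspn, which was higher, and none was lower at an adjusted p under 0.05 (limma), beside the 13.7% of all tested genes that passed. At an unadjusted p under 0.05 (limma) 2 of the 8 passed, Sspn and Sgcb, beside 27.6% of all tested genes. Both counts lay near the share of all tested genes. Means were higher in knock-out muscle for 5 of the 8 genes, beside 49.5% of all tested genes. The median log2 difference of the 8 was 0.12, compared with -0.0029 over all tested genes. This shift depended on wild-type mouse 3. Without that mouse the differences were -0.015 (Dmd), 0.069 (Utrn), -0.13 (Dag1), -0.049 (Sgca), 0.185 (Sgcb), 0.0081 (Sgcd), 0.37 (Sspn) and 0.018 (Dtna). The median over all tested genes was then -0.0045. The knock-out and wild-type values did not overlap for 2 of the 8, Sspn and Sgcb, both higher, compared with 14.4% of all tested genes in either direction and 7.45% in the higher direction. All differences of the 8 genes lay between -0.24 and 0.31, and 2.31% of tested genes had one of at least 1 in size. The SD between wild-type mice exceeded that between knock-out mice for 7 of the 8 genes, as it did for 82.9% of all tested genes.

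**Figure D1:**
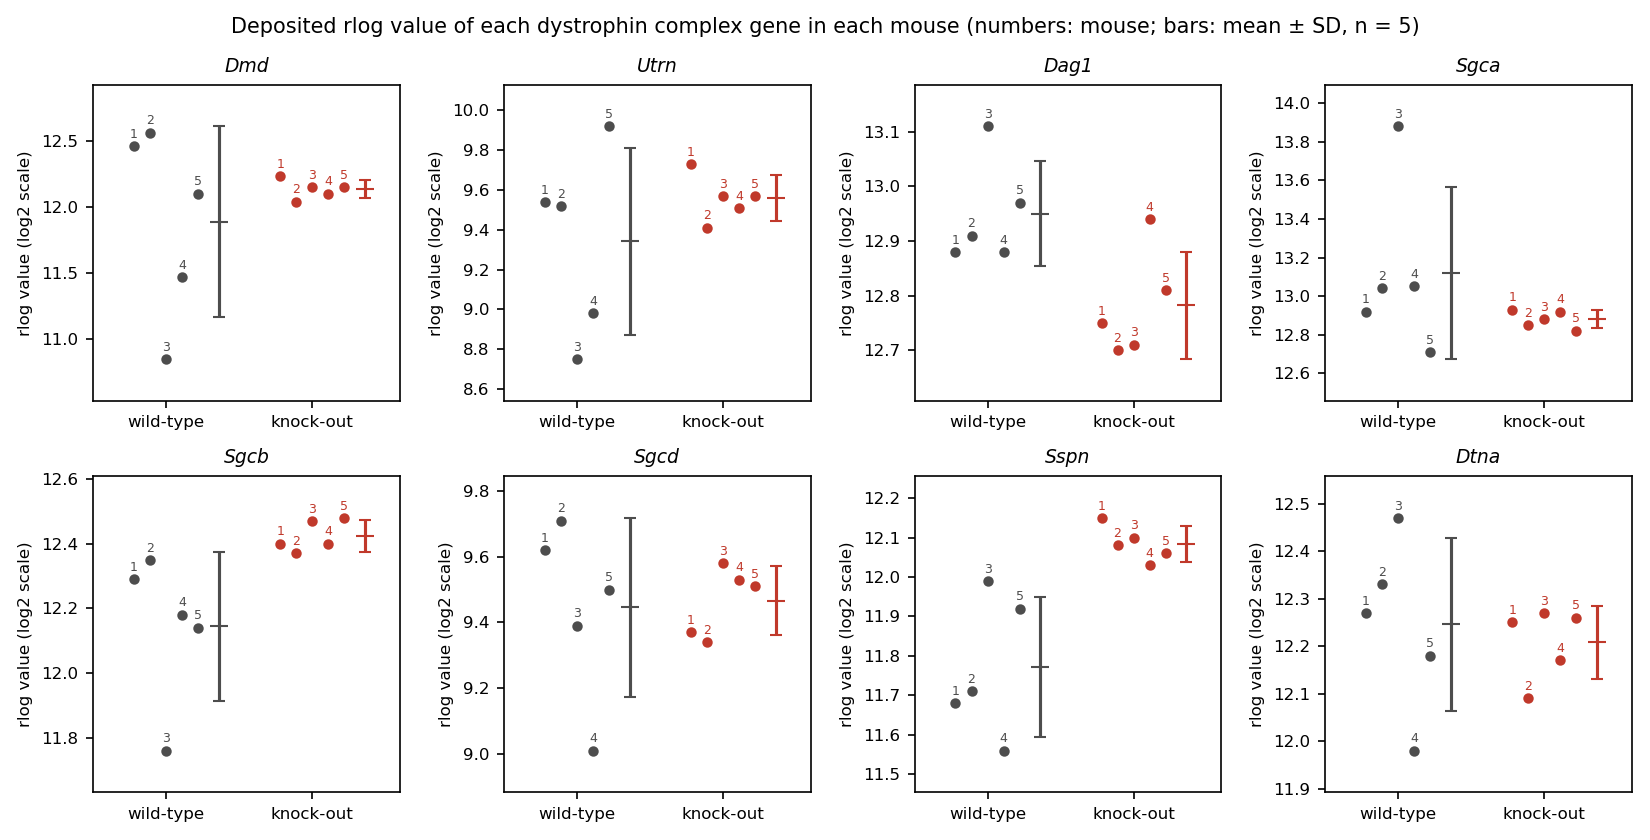
Deposited rlog value (log2 scale, y axis) of the 8 dystrophin complex genes in each of the 5 wild-type (grey) and 5 desmin knock-out mice (red), numbered by mouse, with the mean ± SD beside the points; each panel has its own y range. Sspn and Sgcb separate the genotypes, while the wild-type values of Dmd span 10.85 to 12.56 and enclose all knock-out values.

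Dmd (ENSMUSG00000045103, forward strand of chromosome X, 82948870 to 85206141 in GRCm38), which encodes dystrophin, had values of 12.23, 12.04, 12.15, 12.10 and 12.15 in desmin knock-out mice 1 to 5. In wild-type mice 1 to 5 it had 12.46, 12.56, 10.85, 11.47 and 12.10. The knock-out mice lay close together inside the wild-type range, which was set at its low end by mice 3 and 4. In these same mice the deviation from the gene means fell most with transcript length. Knock-out mice had a mean of 12.13 ± 0.07 and wild-type mice one of 11.89 ± 0.72 (SD, n = 5 each), which gave a log2 difference of 0.24 with a 95% interval from -0.32 to 0.80 (limma, adjusted p = 0.58). The direction was not stable, since the difference was -0.015 without wild-type mouse 3. When the dependence of each mouse on GC content and length was regressed out, an alternative chosen after the values had been seen, wild-type mice 3 and 4 moved up to 11.48 and 11.78 and the difference was 0.082. Gene-level values cannot separate the full-length muscle isoform from the shorter dystrophins.

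**Figure D2:**
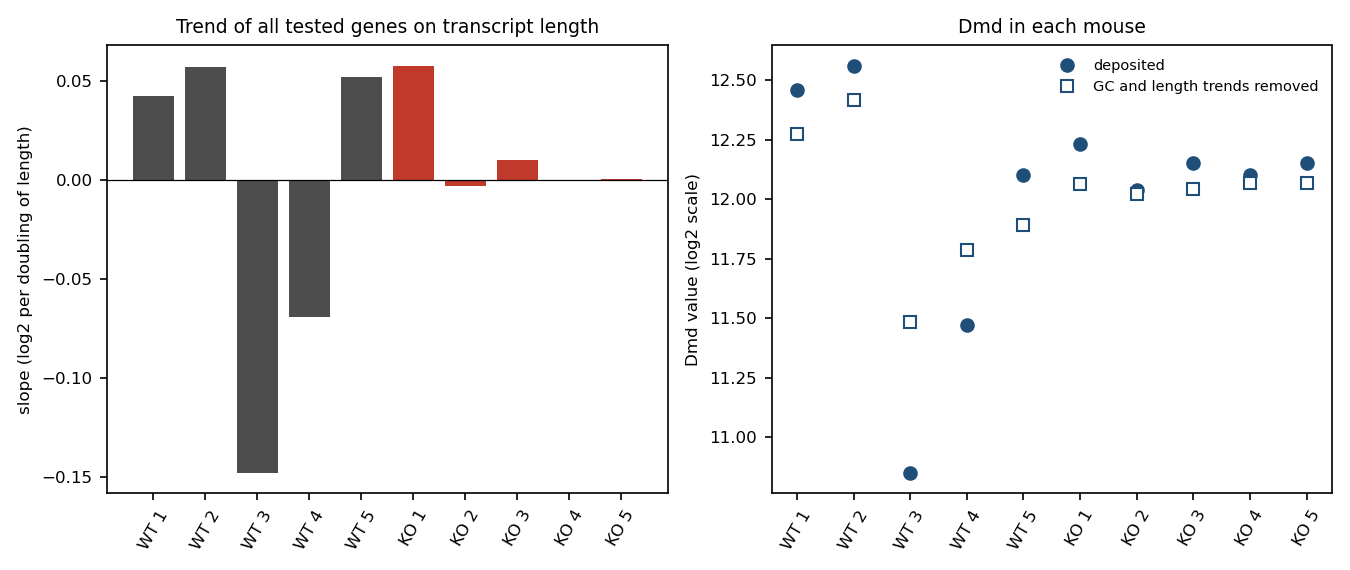
Left, slope of each mouse's deviation from the gene means on transcript length over 14277 genes (y axis, log2 units per doubling of length; bars, 1 per mouse; WT wild-type, KO knock-out). Right, Dmd value of each mouse (log2 scale) as deposited and with GC and length trends removed. Wild-type mice 3 and 4 have the most negative slopes, -0.148 and -0.0693, and the lowest Dmd values.

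Utrn (ENSMUSG00000019820, reverse strand of chromosome 10, 12382188 to 12869365), which encodes utrophin, had 9.73, 9.41, 9.57, 9.51 and 9.57 in desmin knock-out mice 1 to 5. Wild-type mice 1 to 5 had 9.54, 9.52, 8.75, 8.98 and 9.92. The groups overlapped fully, with both the lowest and the highest value in wild-type mice, and mice 3 and 4 were again the lowest. The log2 difference was 0.22, with a 95% interval from -0.18 to 0.61 (limma, adjusted p = 0.473), and 0.069 without wild-type mouse 3. Because utrophin can take the place of dystrophin, the difference between the Utrn and the Dmd value was also taken within each mouse. It ranged from -2.625 to -2.495 in knock-out and from -3.044 to -2.105 in wild-type muscle, so the knock-out values lay inside the wild-type range.

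Dag1 (ENSMUSG00000039952, reverse strand of chromosome 9, 108204634 to 108263958) encodes both subunits of dystroglycan, the laminin receptor to which dystrophin binds. Its values were 12.75, 12.70, 12.71, 12.94 and 12.81 in desmin knock-out mice 1 to 5 and 12.88, 12.91, 13.11, 12.88 and 12.97 in wild-type mice 1 to 5. In 4 of the 5 knock-out mice Dag1 lay below every wild-type mouse, and knock-out mouse 4 lay within the wild-type range. The log2 difference was -0.17 (standard error 0.087), which did not pass over all tested genes (limma, unadjusted p = 0.0706, adjusted p = 0.225). The exact permutation test gave an unadjusted p of 0.0317 (two-sided). It had the same sign in all 19 alternative analyses, from -0.21 to -0.077, with adjusted p (limma) from 0.177 to 0.441. Dag1 was the only one of the 8 genes with similar spread in both genotypes, 0.0975 in knock-out and 0.0971 in wild-type mice (SD, n = 5 each).

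Of the sarcoglycans, single-pass membrane proteins that assemble as a unit in muscle, Sgcb (ENSMUSG00000029156, reverse strand of chromosome 5, 73632749 to 73647790) encodes β-sarcoglycan. Its values were 12.40, 12.37, 12.47, 12.40 and 12.48 in desmin knock-out mice 1 to 5 and 12.29, 12.35, 11.76, 12.18 and 12.14 in wild-type mice 1 to 5. All knock-out values lay above all wild-type values, although the nearest 2, knock-out mouse 2 and wild-type mouse 2, were 12.37 and 12.35. The log2 difference was 0.28, with a 95% interval from 0.048 to 0.51, and missed the threshold over all tested genes (limma, adjusted p = 0.107). Its adjusted p (limma) was 0.072 without wild-type mouse 3, the lowest mouse, and the difference was then 0.185. Sgca (ENSMUSG00000001508, reverse strand of chromosome 11, 94962791 to 94976327), which encodes the muscle-specific α-sarcoglycan, ranged from 12.82 to 12.93 in knock-out mice and had 12.92, 13.04, 13.88, 13.05 and 12.71 in wild-type mice 1 to 5. Here wild-type mouse 3 was the highest of all, the opposite of its place for Dmd, Utrn and Sgcb. The log2 difference of Sgca was -0.24 (95% interval -0.61 to 0.13; limma, adjusted p = 0.394) and -0.049 without that mouse. Sgcd (ENSMUSG00000020354, reverse strand of chromosome 11, 46896253 to 47988969), which encodes δ-sarcoglycan, ranged from 9.34 to 9.58 in knock-out and from 9.01 to 9.71 in wild-type mice, a log2 difference of 0.021 (95% interval -0.245 to 0.288; limma, adjusted p = 0.929). Its sign turned under median centring and in 5 further alternatives.

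Sspn (ENSMUSG00000030255, forward strand of chromosome 6, 145931641 to 145965223) encodes sarcospan, a small multi-pass membrane protein that binds the sarcoglycans. It had 12.15, 12.08, 12.10, 12.03 and 12.06 in desmin knock-out mice 1 to 5 and 11.68, 11.71, 11.99, 11.56 and 11.92 in wild-type mice 1 to 5. All knock-out mice lay above all wild-type mice, of which mice 3 and 5 came closest. This separation holds for the deposited values only. With GC and length trends removed, wild-type mouse 3 stood at 12.163, above every knock-out mouse (12.003 to 12.085). Sspn was higher by 0.31 on the log2 scale (standard error 0.095, 95% interval 0.11 to 0.52), a ratio of 1.24, with an adjusted p of 0.0432 (limma). The exact permutation test over the 10 mice gave p = 0.00794 (two-sided, unadjusted), the smallest p that 5 mice against 5 allow. Every gene without overlap has this p, Sgcb among them, so it restates the separation and adds no support to it. The difference stayed positive in all 19 alternatives, from 0.25 to 0.38, but had an adjusted p under 0.05 (limma) in 6 of them, with a range from 4.64e-04 to 0.105. Median centring of the mice (adjusted p = 0.105, limma), the replicate number as a block (0.0873) and removal of GC and length trends (0.103) were among those that ended the call. Without wild-type mouse 3 the difference was 0.37 (limma, adjusted p = 0.00419). Of the 10 omissions of a single mouse, 2 kept the call, this one and that of wild-type mouse 5 (limma, adjusted p = 0.037). Omitting any knock-out mouse, or wild-type mouse 1, 2 or 4, ended it (limma, adjusted p from 0.077 to 0.101).

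Dtna (ENSMUSG00000024302, chromosome 18, 23415135 to 23659715) encodes α-dystrobrevin, which joins dystrophin to syntrophins and to intermediate filament proteins and is also needed for stable NMJs. Its values were 12.25, 12.09, 12.27, 12.17 and 12.26 in desmin knock-out mice 1 to 5 and 12.27, 12.33, 12.47, 11.98 and 12.18 in wild-type mice 1 to 5. The genotypes overlapped, with a log2 difference of -0.038 (95% interval -0.25 to 0.17; limma, adjusted p = 0.833). An antisense gene on the opposite strand, Gm47898, overlaps Dtna at a mean value of 7.25, and whether reads were counted by strand is not given in the sources used here.

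Levels of the 8 genes were compared per length, by subtracting log2 of the kilobases of the longest annotated transcript from the rlog value. On this scale the order in wild-type muscle was Sgca at 12.33 ± 0.45, Dag1 at 10.45 ± 0.10, Sgcb at 10.22 ± 0.23, Sspn at 9.60 ± 0.18, Dtna at 9.59 ± 0.18, Dmd at 7.99 ± 0.72, Sgcd at 7.29 ± 0.27 and Utrn at 5.71 ± 0.47 (mean ± SD, n = 5). Ranges of wild-type mice overlapped between the neighbours Dag1 and Sgcb, Sspn and Dtna, and Dmd and Sgcd, and not between the other neighbours. In knock-out muscle no neighbours overlapped, and Sgcb at 10.50 ± 0.05 stood above Dag1 at 10.28 ± 0.10 (mean ± SD, n = 5). The order in each genotype was the same with the union of all exons as the length. Mixed isoforms and the length trend of a mouse enter these levels, so they are approximate.

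**Figure D3:**
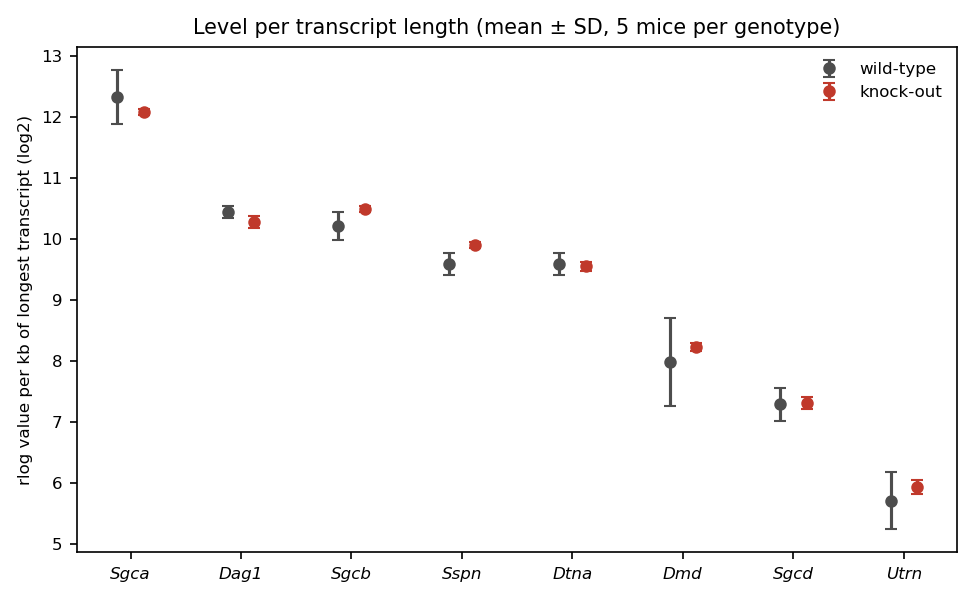
Level of each gene per kilobase of its longest transcript (y axis, log2 scale) in wild-type (grey) and desmin knock-out muscle (red), as mean ± SD over 5 mice each. Sgca is highest at 12.33 and 12.09 and Utrn lowest at 5.71 and 5.93 (wild-type and knock-out), and only Dag1 and Sgcb trade places.

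The other genes of the complex were taken from a list of 12, of which 9 reached the expression limit, Sgcz, Sntg1 and Sntg2 being below it. In the desmin knock-out 3 of the 9 were lower and none was higher (limma, adjusted p under 0.05), namely Nos1, Sntb1 and Dtnb, beside 13.7% of all tested genes called in either direction and 5.99% called lower. Of the other cytoplasmic genes, Drp2 and Sntb2, named after their values were seen, had positive log2 differences of 0.36 and 0.31 that did not pass (limma, adjusted p = 0.103 and 0.244). The median log2 difference of the 9 was 0.0042, compared with -0.0029 over all tested genes. For all 3 the highest knock-out mouse stayed under the lowest wild-type mouse, compared with 6.97% of all tested genes.

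Nos1 encodes neuronal nitric oxide synthase, which is held at the sarcolemma of muscle through dystrophin. It had 10.72, 11.01, 10.59, 10.87 and 10.67 in desmin knock-out mice 1 to 5 and 11.35, 11.83, 11.83, 11.40 and 11.44 in wild-type mice 1 to 5. The groups were separated by a gap wider than the knock-out SD of 0.17. The log2 difference of Nos1 was -0.80 (standard error 0.12, limma, adjusted p = 6.13e-04), a ratio of 0.575, and kept an adjusted p under 0.05 in all 19 alternatives. Sntb1, which encodes β1-syntrophin, had 6.52, 6.47, 6.75, 6.60 and 6.55 in knock-out mice and 7.76, 7.43, 7.12, 7.09 and 7.68 in wild-type mice 1 to 5. The log2 difference was -0.84 (standard error 0.14, limma, adjusted p = 0.00137), also in all 19 alternatives.

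Dtnb, which encodes β-dystrobrevin, is known mainly outside muscle fibers. It ranged from 6.77 to 7.08 in desmin knock-out and from 7.11 to 8.05 in wild-type mice, a log2 difference of -0.55 (standard error 0.17, limma, adjusted p = 0.0436), with an adjusted p under 0.05 in 10 of 19 alternatives. The difference between the Dtnb and the Dtna value within a mouse ranged from -5.48 to -5.10 in knock-out and from -5.08 to -4.28 in wild-type muscle, without overlap. This pair was chosen after the values of both genes had been seen, and the difference is given as a description. Sgce, which encodes the widely expressed ε-sarcoglycan, had a log2 difference of 0.0042 (limma, adjusted p = 0.989).

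Cav3, which encodes the muscle caveolin, had 11.75, 11.94, 11.90, 11.99 and 12.02 in desmin knock-out mice 1 to 5 and 11.56, 11.52, 12.23, 11.82 and 11.31 in wild-type mice 1 to 5. Wild-type mouse 3 was the highest of all, and wild-type mouse 4 lay within the knock-out range. Its log2 difference was 0.23 (limma, adjusted p = 0.33), and it had an adjusted p under 0.05 in 4 of 19 alternatives. Among these were the omission of wild-type mouse 3 (0.37, limma, adjusted p = 0.0176), the removal of GC and length trends (0.30, limma, adjusted p = 0.0351) and sample weights (limma, adjusted p = 3.89e-04). Without wild-type mouse 3, 5 genes of the list passed, 2 of them higher, while the share of all tested genes that passed rose from 13.7% to 17.5%.

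**Figure D4:**
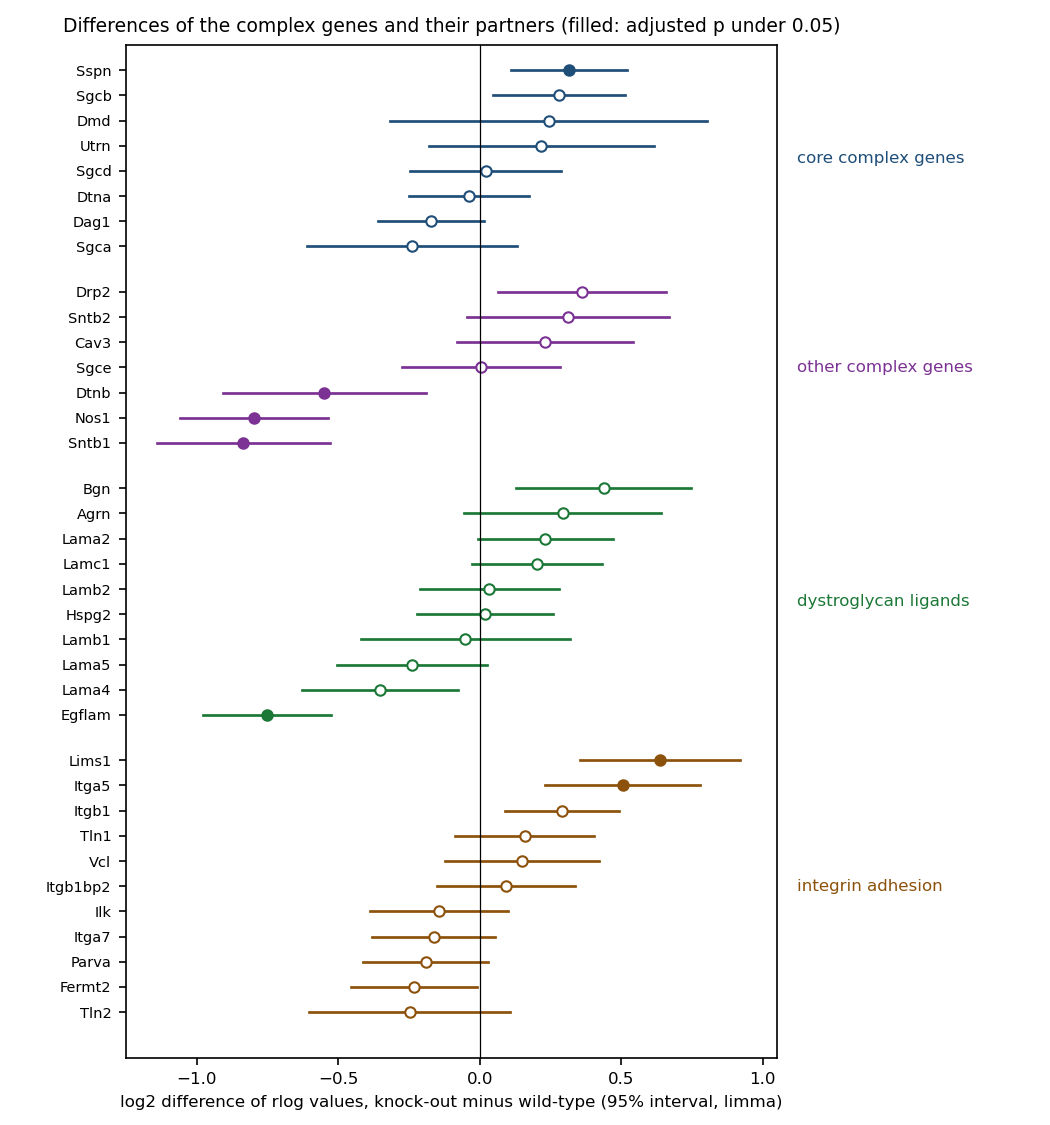
Log2 difference of rlog values, desmin knock-out minus wild-type (x axis), with its 95% interval from limma, for the 8 genes described, other genes of the complex, dystroglycan ligands and genes of integrin adhesion. Filled points have an adjusted p under 0.05, and among the complex genes these are Sspn at 0.31 on the higher side and Dtnb, Nos1 and Sntb1 between -0.84 and -0.55 on the lower side.

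Dystroglycan binds laminin only after a long sugar chain has been built on it, and 18 genes of this glycosylation pathway were all tested. Of these, 2 rose and 2 fell in the desmin knock-out (limma, adjusted p under 0.05), or 22.2% beside 13.7% of all tested genes, with a median log2 difference of -0.03. Rxylt1, a xylosyltransferase that acts on the chain, had 10.04, 9.85, 10.09, 10.23 and 10.20 in knock-out mice 1 to 5 and 10.47, 10.39, 10.84, 10.34 and 10.39 in wild-type mice 1 to 5. All knock-out mice lay below all wild-type mice, among which mouse 3 was the highest. The log2 difference was -0.40 (standard error 0.112, limma, adjusted p = 0.0289), with an adjusted p under 0.05 in 14 of 19 alternatives. With the replicate number as a block the adjusted p of Rxylt1 was 0.0515 (limma) and 1 gene of the list passed. Leaving out any single knock-out mouse, or wild-type mouse 2 or 5, left 1 or 2 genes of the list.

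Of 12 genes for extracellular partners of dystroglycan, 10 were tested, and 1 was lower and none higher in desmin knock-out muscle (limma, adjusted p under 0.05), or 10% beside 13.7% of all tested genes. This was Egflam, which encodes pikachurin, a dystroglycan ligand known from photoreceptor synapses. It ranged from 9.44 to 9.85 in knock-out and from 10.20 to 10.56 in wild-type mice, a log2 difference of -0.75 (standard error 0.105, limma, adjusted p = 3.12e-04), in all 19 alternatives. Lama2, which encodes the α2 chain of the main laminin of muscle, ranged from 10.31 to 10.73 in knock-out and from 9.96 to 10.39 in wild-type mice, a log2 difference of 0.23 (95% interval -0.0072 to 0.47; limma, adjusted p = 0.196). Without wild-type mouse 3, 3 genes of this list passed, 1 higher and 2 lower, beside 17.5% of all tested genes. Without knock-out mouse 3 there were 2, of which 1 was higher.

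On the cytoskeletal side, 13 of 14 genes were tested, with Krt19 below the limit. Des itself and 1 other gene passed, or 15.4% beside 13.7% of all tested genes. This was Ank3, which encodes ankyrin-G, a binding partner of dystrophin and dystroglycan. Ank3 had 12.28, 12.27, 12.44, 12.07 and 12.07 in desmin knock-out mice 1 to 5 and 11.85, 12.07, 11.80, 11.79 and 11.77 in wild-type mice 1 to 5. Wild-type mouse 2 nearly reached knock-out mice 4 and 5. Ank3 was higher by 0.37 (limma, adjusted p = 0.023), in 14 of 19 alternatives, and the call ended without knock-out mouse 1 or 2 or wild-type mouse 5. Without wild-type mouse 3, 4 genes of the list passed, 2 of them higher, beside 17.5% of all tested genes.

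The integrin system is the other laminin and matrix link of the muscle fiber, and all 11 genes of this list were tested. In the desmin knock-out 2 were higher and none was lower (limma, adjusted p under 0.05), or 18.2% beside 13.7% of all tested genes. Lims1, which encodes the adaptor PINCH1 of the integrin-linked kinase complex, ranged from 11.51 to 11.85 in knock-out and from 10.73 to 11.48 in wild-type mice, and was higher by 0.64 (standard error 0.13, limma, adjusted p = 0.00548). Itga5, which encodes the α5 chain of a fibronectin receptor, ranged from 8.70 to 9.22 and from 8.04 to 8.61 and was higher by 0.50 (standard error 0.13, limma, adjusted p = 0.0175). Both passed in all 19 alternatives. Itga7, which encodes the main laminin-binding integrin chain of muscle, was named after its values were seen, and had a log2 difference of -0.16 (95% interval -0.38 to 0.053; limma, adjusted p = 0.317).

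**Figure D5:**
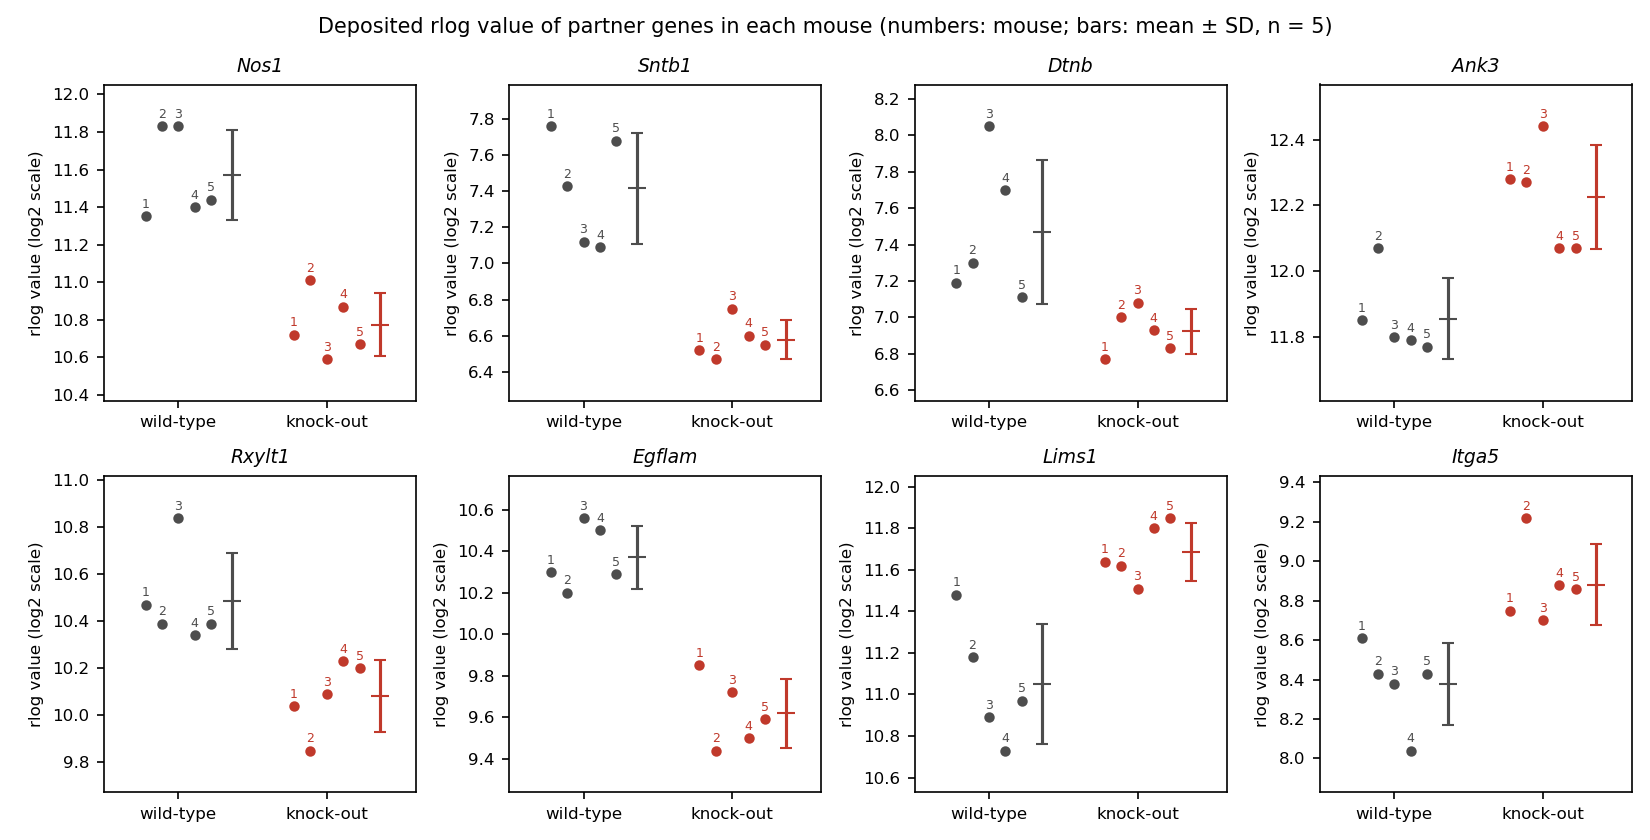
Deposited rlog value (log2 scale, y axis) of 8 partner genes in each of the 5 wild-type (grey) and 5 desmin knock-out mice (red), numbered by mouse, with the mean ± SD beside the points; each panel has its own y range. Nos1, Sntb1, Dtnb, Rxylt1 and Egflam are lower and Ank3, Lims1 and Itga5 higher in every knock-out mouse than in any wild-type mouse, by the narrowest margin for Ank3, where wild-type mouse 2 nearly reaches knock-out mice 4 and 5.

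Marker transcripts of several cell types were also compared, and in bulk muscle fewer cells of a type and less RNA per cell cannot be told apart. The counts stand beside 13.7% of all tested genes that passed, 7.7% higher and 5.99% lower. A list with 1 of 8 genes called has 12.5%, near that share. Of 10 endothelial markers 6 were lower and none higher (limma, adjusted p under 0.05), among them Flt1 at -0.59 and Vwf at -0.62, and the summed level of the list ranged from 12.49 to 12.82 in desmin knock-out and from 12.87 to 13.17 in wild-type muscle. Of 8 fibroblast markers 3 were higher, with Lum at 0.99 and Col1a1 at 0.50, at summed levels from 13.70 to 14.30 and from 13.26 to 14.24. Of 9 markers of satellite cells and regenerating fibers 5 were higher, led by Myh3 at 2.25 and Mymk at 1.93, and 1 was lower, Myod1 at -0.47, with sums from 11.20 to 11.87 and from 10.52 to 10.94. Pax7 at 0.015, Myf5 at 0.28 and Ncam1 at 0.57 did not pass (limma, adjusted p = 0.956, 0.473 and 0.0731). Slow fiber markers had 3 of 8 higher and 1 lower, with Tnnt1 at 1.70 and Tnni1 at 0.91 on the higher side, Myl3 at -0.9985 on the lower side (limma, adjusted p = 0.0143), the slow myosin gene Myh7 at -0.05 (limma, adjusted p = 0.933) and sums from 15.53 to 15.95 and from 14.84 to 15.96. Fast fiber markers had 3 of 9 lower and none higher, with Mybpc2 at -1.05 and Actn3 at -0.97 and sums from 21.92 to 22.14 and from 22.20 to 23.13. The fast myosin gene Myh1, the 1 gene of this list with a positive difference, stood at 0.58 (limma, adjusted p = 0.132). Without wild-type mouse 3 it stood at 0.79 (limma, adjusted p = 0.00524). Of the skeletal muscle markers 1 of 8, Myh4 at -0.71, which is also on the fast list, was lower. The median log2 difference of this list was -0.41, and 2 of the 8 differences were positive. Its sums ranged from 22.14 to 22.31 in knock-out and from 22.31 to 23.29 in wild-type muscle. Of 8 smooth muscle and pericyte markers 1 was higher, Cspg4 at 1.02, while it was also the 1 gene of the list with a positive difference. The median of the list was -0.26, and Notch3 stood at -0.43 (limma, adjusted p = 0.0724), with sums from 13.49 to 13.77 and from 13.67 to 14.33. Of 8 Schwann cell markers 1 was higher, Egr2 at 1.02, with sums from 11.01 to 11.44 and from 10.71 to 11.50. Of 8 macrophage markers 0 passed with limma, at an adjusted or at an unadjusted p under 0.05, Csf1r having the smallest p with -0.18, with sums from 10.26 to 10.81 and from 10.43 to 10.72. No defining marker of these lists was listed at 0. Slow fiber and fibroblast sums overlapped between the genotypes, and those of the endothelial, regenerating and fast fiber lists did not. The part of these values in the differences of Sspn, Nos1, Sntb1, Dtnb, Rxylt1, Egflam and the integrin genes was not tested.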

How the data were processed

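The data are RNA sequencing values of the gastrocnemius of 10 mice, 5 per genotype. Per the submitters' processing notes the authors used cutadapt 2.5, STAR 2.5.4a, Subread 1.6.1 with featureCounts, and DESeq2 on GRCm38. What the authors deposited are regularized log (rlog) values in log2 units, corrected for depth and shrunken, which understates differences, most for genes with few reads. Counts were not used here, so the depth of each mouse is unknown. No column was left unused.

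GENCODE M21 (GRCm38) gave symbols and positions for 54165 of 54232 genes. Genotypes were compared with limma 3.58.1 in R 4.3.3 for the 14289 genes whose mean reached log2(10), with a variance prior that follows the mean, two-sided p and Benjamini-Hochberg adjustment across these genes. Single values were tested with exact permutation tests over the 10 mice. The script was tested on simulated data.

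The members and lists were chosen with earlier results of these data known. Named genes were the 8 members, Des, up to 3 genes per partner list with the smallest adjusted p under 0.05, 2 per marker list by smallest p, partners taken whatever their values (Sgce, Nos1, Cav3 and Lama2 among them), and the 2 genes most correlated with each member. The 19 alternatives were 2 other expression limits, centring on medians, quantile normalization, 1 common prior variance, weights per sample, a block for the replicate number, a covariate for Y-linked transcripts, omission of each mouse in turn and, added after the data had been seen, removal of GC and length trends. A threshold of 0.01 was also applied. Some genes of the partner lists count in the lists but are not reported here by name.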

Additional observations from a re-analysis of the deposited data

Results flagged for a closer look

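Among the 38 genes followed, each genotype's 5 mice were searched for a mouse far from the other 4 by Dixon's test. Of 76 groups 7 had such a mouse, where chance gives about 3.8, and none of the 16 groups of the 8 dystrophin complex genes was among them. In 4 of the 7 it was wild-type mouse 3, which was highest for Des (17.74), Rxylt1 (10.84), Tnnt1 (12.43) and Actn3 (19.34). Rxylt1 remained lower in desmin knock-out muscle without this mouse (log2 difference -0.31, limma, adjusted p = 0.0177). The other 3 were wild-type mouse 2 for Ank3 (12.07) and knock-out mouse 3 for Sgce (7.34) and Egr2 (6.06).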

How the results depend on the processing

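Among the 8 dystrophin complex genes, the direction of Utrn, Dag1, Sgca, Sgcb and Sspn was kept in all 19 alternatives. Dmd turned to -0.24 with sample weights and -0.15 with the Y-linked covariate, and ranged from -0.015 to 0.41 when mice were left out, the lowest being without wild-type mouse 3. Sgcd turned to -0.021 with median centring, -0.11 with sample weights, -0.087 with the Y-linked covariate and -0.15 with GC and length trends removed, and ranged from -0.087 to 0.087 when mice were left out. Dtna turned to 0.042 with quantile normalization and ranged from -0.10 to 0.018 when mice were left out. None of these 3 passed the test in any alternative. The difference of Sspn was 0.31 without an expression limit, with a single prior variance, with the replicate block and at the 0.01 threshold, 0.27 with median centring and 0.25 with GC and length trends removed, and 0 of the 8 genes passed under these 6 settings (limma). When mice were left out it ranged from 0.26 to 0.37, and 0 to 1 of the 8 passed.

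Over all genes 4220 passed with sample weights and 994 at the 0.01 threshold. With sample weights 6 other complex genes, 4 ligands, 7 cytoskeletal partners and 5 integrin adhesion genes passed. At the 0.01 threshold 1 glycosylation gene, 1 cytoskeletal partner and 1 integrin adhesion gene did. Glycosylation genes numbered 2 without an expression limit and 1 with the replicate block. Ligands numbered 2 with quantile normalization, 2 with the Y-linked covariate and 3 with GC and length trends removed. When mice were left out, 2 to 5 other complex genes passed, 1 to 5 glycosylation genes, 1 to 3 ligands and 1 to 4 cytoskeletal partners. The cause of these shifts was not tested. Mice of the same number did not deviate together (correlations from -0.219 to 0.0673), and the labels state no pairing. These correlations cannot show whether such mice were littermates or handled together, so whether the replicate block belongs to the design is unknown. With this block Sspn had an adjusted p of 0.0873 (limma) and 1579 genes passed in all. The table gives no depth, and 5 mice per genotype cannot give an exact permutation p below 0.00794.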

Other observations

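Similarity to each of the 8 genes was measured as the Pearson correlation, over the 10 mice, of deviations from the genotype means, among all tested genes other than the 8 themselves. The values share the libraries and their length trends and are a description. The 2 most similar genes were Pggt1b (0.995) and Bdp1 (0.994) for Dmd, Hspd1-ps3 (0.985) and Trim56 (0.98) for Utrn, Epop (0.959) and 0610040J01Rik (0.935) for Dag1, and Emd (0.99) and Cdc37 (0.989) for Sgca. They were Usp53 (0.982) and Carf (0.975) for Sgcb, Pxk (0.983) and Papolg (0.979) for Sgcd, Lamb3 (0.955) and Selenbp1 (0.94) for Sspn, and Smurf2 (0.981) and Tfb1m (0.966) for Dtna. Emd encodes emerin, a protein of the inner nuclear membrane. Without wild-type mouse 3 these correlations lay lower for Sgca (0.9 for Emd) and Sgcb (0.862 for Carf) and were still 0.995 for Pggt1b with Dmd.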
